A study of Homo sapiens with 8 samples.

Results

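The Polycomb repressive complex genes described here are EZH1, EZH2, EED, SUZ12, CBX2, CBX6, CBX7, CBX8 and BMI1, 9 of the 28265 genes counted in every library, chosen by matching the gene symbol. Factory RNA-Seq, an assay of RNA held in transcription factories, was applied to IMR90, a line of human fetal lung fibroblasts, under 4 conditions with 2 libraries each (8 libraries in all). The conditions were untreated low passage cells, which the labels call young and which serve as control, cells given inflachromene (ICM), a small molecule that binds the chromatin proteins HMGB1 and HMGB2, for 3 days or for 6 days, and cells labelled MetaICM, a treatment that the labels neither explain nor time. All 4 conditions come from this single line, and the labels name separate libraries but not separate cultures, so p-values measure the spread between these libraries, which may be technical. The labels' extraction text describes total RNA with poly(A) selection, and the values below count read pairs on exons, so they are described as exonic RNA levels.

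Polycomb proteins keep developmental genes silent through the complexes PRC1 and PRC2. PRC2 trimethylates histone H3 at lysine 27, with EZH2 or its paralog EZH1 as the catalytic subunit and EED and SUZ12 as the core subunits that the enzyme needs. PRC1 ubiquitinates histone H2A through RING1 or RNF2, and in its canonical form carries a CBX protein that reads the PRC2 mark and a PCGF protein such as BMI1. EZH2 is known as the form of dividing cells and EZH1 as the form found also in resting cells, and both BMI1 and CBX7 are known repressors of the INK4 locus, which encodes cell cycle inhibitors and is a classical Polycomb target in fibroblasts.

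The start regions of EZH2, EZH1 and SUZ12 are shown because for these members at least 1 promoter window held an E2F-type octamer, the element through which E2F factors act on many cell cycle genes. The windows are RefSeq sequences of build GRCh38.p14, run from 250 bases before to 50 bases after the annotated start, are written 5′ to 3′ on the gene's strand, and carry the octamer in capitals. The letters searched were TTTCCCGC, TTTGGCGC, TTTCGCGC and TTTGCCGC, which are distinct words of the same length, on both strands. At least 1 of them was present in 3.31% of 35116 windows of the same length (1164 windows). That share counts single windows of any base composition, while some members have more than 1 window, and enrichment was not tested. Windows were given for 7 of the 9 members, and those of EED, CBX6, CBX7 and BMI1 held none of these letters. CBX2 and CBX8 had no window. EZH2 has a second annotated window, chr7:148883436-148883735, which held none of them either and is not shown.
EZH2 (minus strand, chr7:148884242-148884541): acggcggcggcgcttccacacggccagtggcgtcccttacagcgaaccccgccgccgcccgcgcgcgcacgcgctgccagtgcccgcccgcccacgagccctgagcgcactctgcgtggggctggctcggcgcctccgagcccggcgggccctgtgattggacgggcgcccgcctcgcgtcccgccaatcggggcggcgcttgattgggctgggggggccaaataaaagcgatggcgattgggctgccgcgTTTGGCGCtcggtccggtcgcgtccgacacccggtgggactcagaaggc
EZH1 (minus strand, chr17:42744991-42745290): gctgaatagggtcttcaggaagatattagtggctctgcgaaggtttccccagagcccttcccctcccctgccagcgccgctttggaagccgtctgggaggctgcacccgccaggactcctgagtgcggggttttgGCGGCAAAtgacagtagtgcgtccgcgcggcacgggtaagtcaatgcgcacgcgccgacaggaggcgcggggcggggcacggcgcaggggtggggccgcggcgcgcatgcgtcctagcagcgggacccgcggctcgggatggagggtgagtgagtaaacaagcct
SUZ12 (plus strand, chr17:31936757-31937056): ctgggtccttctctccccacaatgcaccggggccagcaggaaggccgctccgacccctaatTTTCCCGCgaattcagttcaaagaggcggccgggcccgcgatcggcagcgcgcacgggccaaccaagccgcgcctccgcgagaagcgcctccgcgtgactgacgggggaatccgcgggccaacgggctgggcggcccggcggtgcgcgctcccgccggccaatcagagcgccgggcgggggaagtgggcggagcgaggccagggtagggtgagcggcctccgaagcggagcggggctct
The octamer began at base +2 in the EZH2 window shown, at base -115 in EZH1, where it reads GCGGCAAA on the gene's strand, and at base -189 in SUZ12. Of these genes only EZH2 was differentially expressed under ICM, as given below, and a match of letters is a description of the window and not of a bound site.

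Library totals ran from 12095123 to 23166405 counted pairs with a median of 18642269. Changes were tested for every pair of conditions with edgeR's quasi-likelihood test, and a gene was called differentially expressed at a Benjamini-Hochberg adjusted p under 0.05 with an absolute log2FC over 0.6. All 9 members passed the filter on low counts in all 6 comparisons. Levels are given in CPM (counts scaled to library size, with TMM factors) for 1 gene across libraries and in CPM per kb of exon where genes are compared. Both are relative to the RNA counted in a library and are not amounts per cell, and higher and lower are meant in this sense. Imaging in the study showed less newly made RNA in nuclei and nucleoli after 6 days of ICM. Its bearing on the changes below was not tested. All 9 fibroblast markers examined were detected, with a summed level of 23293 to 23675 CPM in control, 13100 to 14506 CPM after 3 days, 11230 to 11485 CPM after 6 days and 20466 to 21415 CPM in MetaICM. Of these markers, 7 and 6 of 9 were downregulated after 3 and 6 days, beside 13.2% and 17.2% of all genes tested. Epithelial markers summed to between 35.1 and 103 CPM, mostly KRT18, endothelial markers to between 129 and 234 CPM, mostly TEK, and blood markers to between 5.05 and 22.2 CPM, mostly CD68. The endothelial cadherin CDH5 had no count after 6 days or in MetaICM and the surfactant gene SFTPC had none in control. The part of these shifts in the results below was not tested.

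EZH2, the catalytic subunit of PRC2 linked to dividing cells, was downregulated at both ICM time points and lay between ICM and control in MetaICM. Its level was 40.9 and 43.9 CPM in control, 8.79 and 8.64 CPM after 3 days, 8.27 and 6.59 CPM after 6 days, and 33.5 and 33.6 CPM in MetaICM. All 4 ICM libraries lay far below the other 4, and no ICM library overlapped control or MetaICM. The log2FC was -2.28 after 3 days (standard error 0.16, edgeR Benjamini-Hochberg adjusted p = 5.09e-07) and -2.51 after 6 days (standard error 0.16, edgeR Benjamini-Hochberg adjusted p = 9.83e-07). In these bulk libraries, fewer cells with EZH2 RNA and less EZH2 RNA per cell cannot be told apart. The gene lies on chromosome 7 of hg19 (GRCh37) from 148504475 to 148581383, minus strand, and shares none of its 2943 exon bases with another gene.

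Between 3 and 6 days EZH2 differed by a log2FC of -0.23 (95% interval -0.61 to 0.14, edgeR Benjamini-Hochberg adjusted p = 0.396), which did not pass. MetaICM was higher than ICM for 3 days by a log2FC of 1.95 (standard error 0.12, edgeR Benjamini-Hochberg adjusted p = 7.52e-09) and higher than ICM for 6 days by 2.17 (standard error 0.12, edgeR Benjamini-Hochberg adjusted p = 1.23e-12). MetaICM lay below both control libraries by a log2FC of -0.34 (95% interval -0.60 to -0.08), with an edgeR Benjamini-Hochberg adjusted p of 0.0560 that missed the threshold. The 3 comparisons against control share the same 2 control libraries.

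EZH1, the alternative catalytic subunit, did not follow EZH2. Its level was 34.7 and 36.3 CPM in control, 53.0 and 47.8 CPM after 3 days, 52.5 and 52.4 CPM after 6 days, and 47.0 and 49.1 CPM in MetaICM. Every treated library lay above both control libraries. The log2FC against control was 0.51 after 3 days (edgeR Benjamini-Hochberg adjusted p = 0.0174), 0.56 after 6 days (edgeR Benjamini-Hochberg adjusted p = 0.00387) and 0.44 in MetaICM (edgeR Benjamini-Hochberg adjusted p = 0.0210), so the adjusted p passed in each while the size stayed under 0.6, and EZH1 was not called. Scaling to library totals put the 6-day value at 0.60, just over the cutoff. The gene lies on chromosome 17 from 40852293 to 40897058, minus strand, with 4633 exon bases, none shared.

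Set against each other per kb of exon, EZH2 and EZH1 exchanged places. The ratio of EZH2 to EZH1 was 1.86 and 1.90 in control, 0.261 and 0.285 after 3 days, 0.248 and 0.198 after 6 days, and 1.12 and 1.08 in MetaICM. EZH2 was the more abundant of the pair in control and MetaICM, and EZH1 in all 4 ICM libraries. On the log2 scale the ratio differed from control by -2.79 after 3 days, -3.08 after 6 days and -0.77 in MetaICM, and MetaICM lay 2.01 and 2.31 above ICM for 3 and 6 days. The libraries overlapped in none of the 6 comparisons of conditions, and the two-sided exact permutation p was 0.333 in each, the smallest that 2 against 2 libraries allow.

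**Figure D1:**
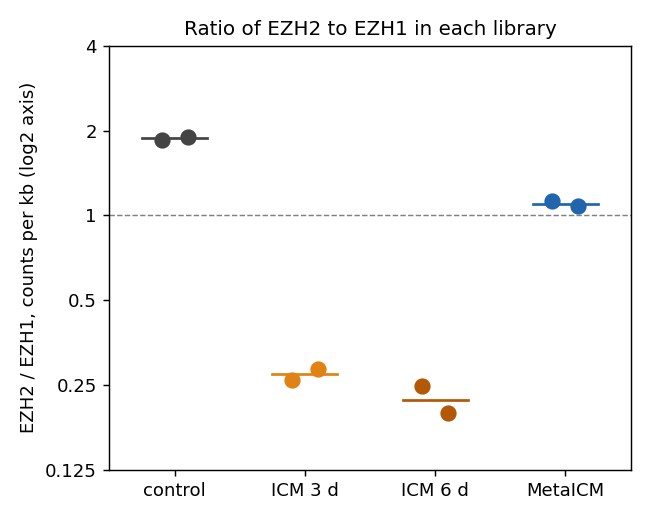
Ratio of EZH2 to EZH1 counts per kb of exon in each library, on a log2 axis, with points for the 2 libraries of each condition, a bar at their geometric mean and a dashed line at equality. Control (1.86 and 1.90) and MetaICM (1.12 and 1.08) lie above the line and all 4 ICM libraries lie between 0.198 and 0.285.

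The core subunits SUZ12 and EED were not called in any comparison. SUZ12, which holds the complex together, read 43.3 and 49.7 CPM in control, 34.9 and 33.0 CPM after 3 days, 33.1 and 28.8 CPM after 6 days, and 34.97 and 38.7 CPM in MetaICM, so both control libraries were above all others. Its log2FC of -0.45 after 3 days (edgeR Benjamini-Hochberg adjusted p = 0.0323) and -0.59 after 6 days (edgeR Benjamini-Hochberg adjusted p = 0.00606) passed the adjusted p but not the size cutoff. Without control replicate 1 the 6-day value was -0.69 and without ICM 6-day replicate 1 it was -0.69, and SUZ12 was then called lower. SUZ12 lies on chromosome 17 from 30264026 to 30328057, plus strand, and has a pseudogene relative whose reads the counting may not separate.

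EED, which reads the mark the complex writes, showed small differences that did not pass. Its libraries read 16.5 and 18.2 CPM in control, 18.4 and 17.2 CPM after 3 days, 18.4 and 18.0 CPM after 6 days, and 16.99 and 16.6 CPM in MetaICM. The ranges of the conditions overlap except where MetaICM lies below both ICM conditions. The log2FC against control was 0.04 after 3 days (95% interval -0.32 to 0.40), 0.07 after 6 days (-0.25 to 0.39) and -0.05 in MetaICM (-0.35 to 0.26). EED lies on chromosome 11 from 85955426 to 85989852, plus strand.

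**Figure D2:**
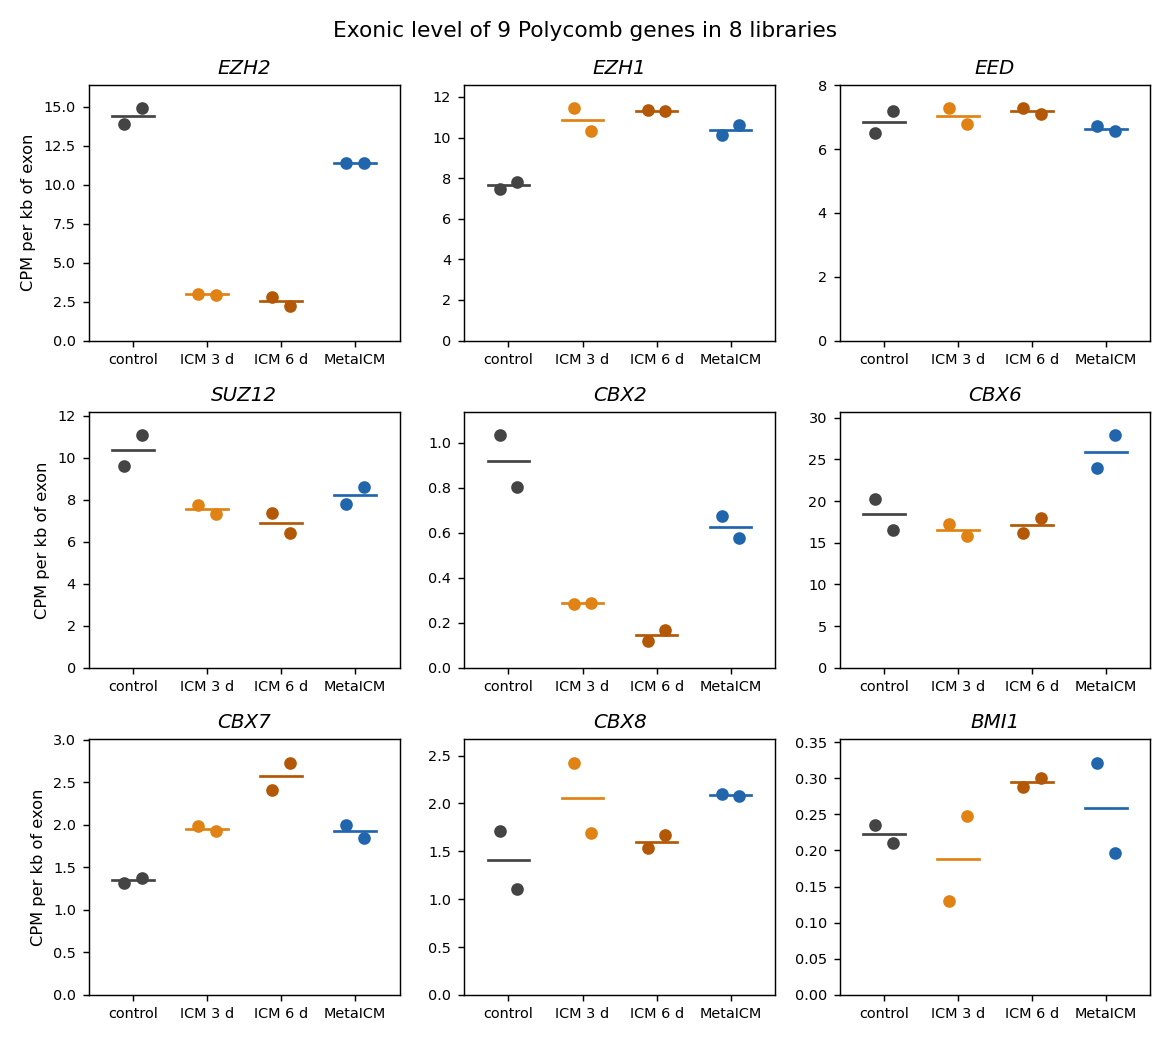
Exonic level of each of the 9 genes in CPM per kb of exon, with points for the 2 libraries of each condition and a bar at their mean, each panel on its own axis from 0. EZH2 and CBX2 are low in the 4 ICM libraries, EZH1 is lowest in control and CBX6 is highest in MetaICM.

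CBX2, a reader subunit of canonical PRC1, was downregulated with ICM and, like EZH2, called at both time points. It had few counts, 93 and 52 in control, 33 and 23 after 3 days, 12 and 17 after 6 days, and 73 and 71 in MetaICM, which correspond to 5.53 and 4.31, 1.52 and 1.55, 0.645 and 0.904, and 3.62 and 3.08 CPM. Each ICM library was below every control and MetaICM library. The log2FC was -1.69 after 3 days (standard error 0.30, edgeR Benjamini-Hochberg adjusted p = 0.00116) and -2.67 after 6 days (standard error 0.32, edgeR Benjamini-Hochberg adjusted p = 9.98e-05). The later time point lay below the earlier by -0.98 (95% interval -1.78 to -0.18), which did not pass (edgeR Benjamini-Hochberg adjusted p = 0.0796). MetaICM was above ICM for 3 days by 1.13 (edgeR Benjamini-Hochberg adjusted p = 0.00370) and for 6 days by 2.10 (edgeR Benjamini-Hochberg adjusted p = 5.19e-06), and differed from control by -0.57 (edgeR Benjamini-Hochberg adjusted p = 0.0949), a value that passed as -0.73 without control replicate 2.

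CBX7, a reader subunit known for repressing the INK4 locus, moved the other way from CBX2. It read 5.41 and 5.63 CPM in control, 8.14 and 7.89 CPM after 3 days, 9.89 and 11.2 CPM after 6 days, and 8.22 and 7.56 CPM in MetaICM, with both control libraries below all others and both 6-day libraries above all others. After 6 days it was upregulated by a log2FC of 0.93 (standard error 0.19, edgeR Benjamini-Hochberg adjusted p = 0.00283). The values of 0.54 after 3 days (edgeR Benjamini-Hochberg adjusted p = 0.0855) and 0.51 in MetaICM (edgeR Benjamini-Hochberg adjusted p = 0.0668) did not pass.

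CBX6, the most abundant of the 4 CBX genes, changed little under ICM and was highest in MetaICM. It read 122 and 100.3 CPM in control, 104 and 95.998 CPM after 3 days, 97.7 and 109 CPM after 6 days, and 145 and 169 CPM in MetaICM. Both MetaICM libraries were above the other 6, while control and ICM overlapped. MetaICM was above ICM for 3 days by a log2FC of 0.65 (edgeR Benjamini-Hochberg adjusted p = 6.15e-05) and for 6 days by 0.60 (edgeR Benjamini-Hochberg adjusted p = 2.52e-06). The second value sits on the size cutoff and fell below it with DESeq2 (0.599), DESeq2 size factors (0.599), upper-quartile factors (0.58) and library totals (0.59), and without ICM 6-day replicate 1 (0.52) or MetaICM replicate 2 (0.49). The first fell below it with library totals (0.597) and without ICM 3-day replicate 2 (0.59) or MetaICM replicate 2 (0.53). Against control MetaICM read 0.49 (edgeR Benjamini-Hochberg adjusted p = 0.0195), under the cutoff, and passed without control replicate 1 (0.65) or MetaICM replicate 1 (0.62).

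CBX8, a further reader subunit, was not called. It read 6.43 and 4.14 CPM in control, 9.11 and 6.34 CPM after 3 days, 5.75 and 6.27 CPM after 6 days, and 7.88 and 7.78 CPM in MetaICM, and the replicates of control and of 3 days were wide apart. Its log2FC of 0.54 after 3 days (95% interval -0.06 to 1.13) became 0.91 and was called without control replicate 1, and the value of 0.54 in MetaICM (0.04 to 1.04) became 0.92 and was called without the same library. Between 6 and 3 days it read -0.39, and -0.61 with a call without ICM 3-day replicate 2. CBX8 lies on chromosome 17 from 77765931 to 77770876, minus strand, 4148 bases from CBX2 (77751947 to 77761782, plus strand), and these neighbours read 0.16 and -2.67 after 6 days. CBX6 (39257427 to 39268221) and CBX7 (39526779 to 39548685) share the minus strand of chromosome 22, 258557 bases apart.

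The make-up of the CBX family shifted accordingly. Among counts per kb over CBX2, CBX6, CBX7 and CBX8, CBX6 held 83.3 and 83.5% in control, 78.6 and 80.3% after 3 days, 79.9 and 79.7% after 6 days, and 83.4 and 86.1% in MetaICM. The CBX2 share was 4.25 and 4.05% in control, 1.29 and 1.47% after 3 days, 0.596 and 0.747% after 6 days, and 2.35 and 1.78% in MetaICM, while the CBX7 share was 5.42 and 6.90% in control, 9.03 and 9.72% after 3 days, 11.9 and 12.1% after 6 days, and 6.96 and 5.68% in MetaICM. For each of these 2 genes the ICM libraries lay apart from control and MetaICM, and 6 days apart from 3 days. The ratio of CBX7 to CBX2 was 1.28 and 1.71 in control, 6.995 and 6.63 after 3 days, 19.998 and 16.2 after 6 days, and 2.97 and 3.20 in MetaICM.

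**Figure D3:**
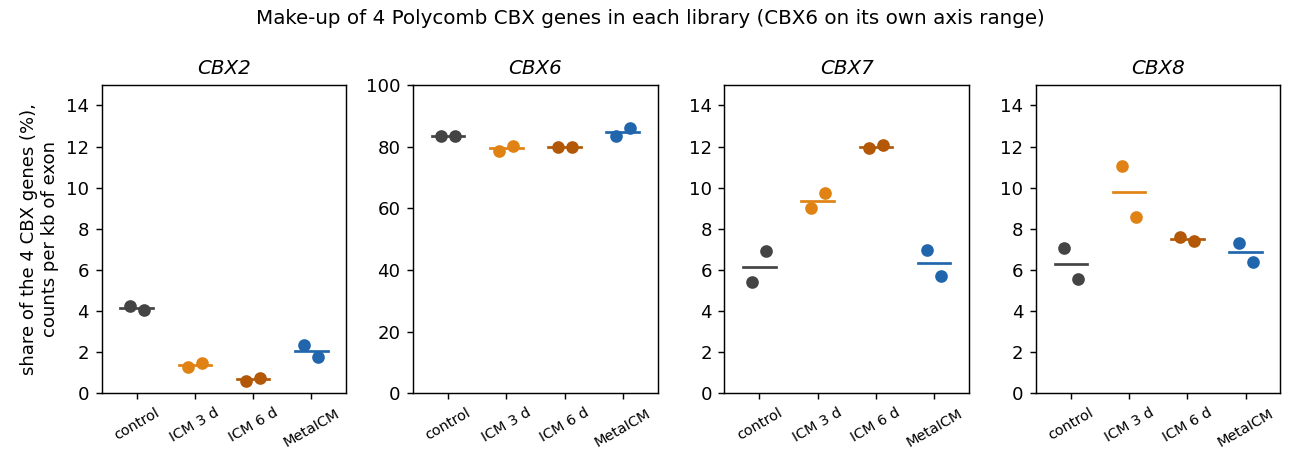
Share of each CBX gene in the summed counts per kb of exon of CBX2, CBX6, CBX7 and CBX8, in percent, with a point for each library and a bar at the mean; the CBX6 axis runs to 100% and the others to 15%. CBX2 falls to 0.671% and CBX7 reaches 12.004% on average after 6 days.

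BMI1, the PCGF subunit best known for holding back INK4 expression, could hardly be measured here. It received between 9 and 23 counts in each library, on chromosome 10 from 22610028 to 22620413, plus strand. Of its 3540 exon bases, 2942 (83.1%) also belong to the COMMD3-BMI1 readthrough gene, and pairs on several genes were not counted, so 598 bases could receive counts for BMI1 alone. The readthrough gene had no count in any library. The log2FC against control was -0.31 after 3 days (95% interval -1.42 to 0.80) and 0.38 after 6 days (-0.50 to 1.27). In MetaICM it was 0.19 (-0.79 to 1.17), and a change was not detectable at these counts.

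Over the 9 genes, ICM for 3 days gave 0 higher and 2 lower calls (EZH2 and CBX2), against 8.85% higher and 13.2% lower of all 15692 genes tested. Scaled to library totals, the calls over all genes at 3 days were 1785 higher and 1767 lower, where TMM gave 1389 and 2067. ICM for 6 days gave 1 higher (CBX7) and 2 lower (EZH2 and CBX2), against 13.3% and 17.2% of 15950 genes. Between 6 and 3 days there was no call either way, against 3.53% higher and 4.54% lower, and MetaICM against control gave none, against 7.41% and 8.99%. MetaICM gave 3 higher (EZH2, CBX6 and CBX2) and none lower against ICM for 3 days, against 13.1% and 10.3%, and the same 3 higher and none lower against ICM for 6 days, against 15.7% and 12%. Counts of 1 to 3 of 9 genes are too small to be read as particular to this set. The median log2FC of the 9 was -0.16 after 3 days, 0.07 after 6 days and 0.19 in MetaICM, beside 0.01, -0.0013 and -0.0011 for all genes tested.

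**Figure D4:**
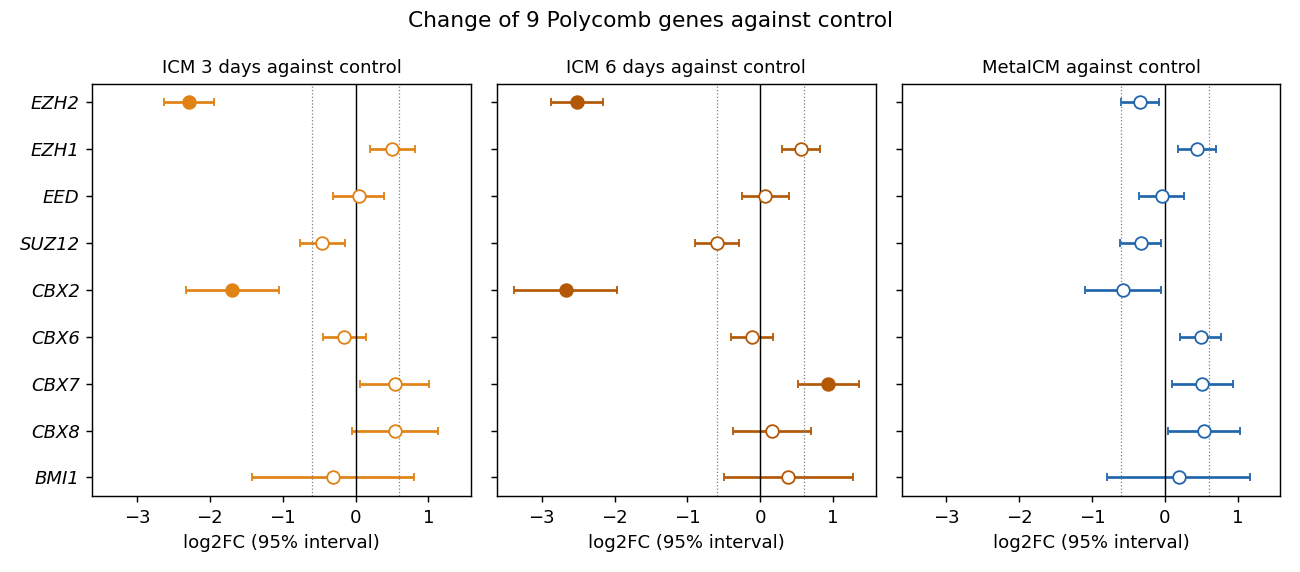
log2FC against control of the 9 genes for ICM 3 days, ICM 6 days and MetaICM, with 95% intervals, filled points for called genes and dotted lines at 0.6 and -0.6. EZH2 (-2.28 and -2.51) and CBX2 (-1.69 and -2.67) are the filled points on the left and CBX7 (0.93 after 6 days) the one on the right.

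The order of levels per kb also changed. In control CBX6 (18.4) stood first, followed by EZH2 (14.4), SUZ12 (10.3), EZH1 (7.66), EED (6.85), CBX8 (1.41), CBX7 (1.34) and CBX2 (0.918 CPM per kb), and only CBX8 and CBX7 of these overlapped between libraries. BMI1 has no place in this order, since its control level was 0.223 CPM per kb of all its exon bases but 1.32 CPM per kb of those it does not share. After 3 days EZH2 took place 5 (2.96), behind EZH1 (10.9), SUZ12 (7.55) and EED (7.04), and after 6 days it took place 6 (2.53), overlapping CBX7 (2.57), while EED (7.20) overlapped SUZ12 (6.89) and CBX2 (0.144) stood last. In MetaICM EZH2 (11.4) was again next to CBX6 (25.9), above EZH1 (10.4).

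The genes most like EZH2 over the 8 libraries, by the root mean square difference of centred log2 CPM among 16591 genes, were RASSF2 (0.10), MAD2L1 (0.13), TMPO (0.14), UCP2 (0.14) and H2BC8 (0.15), the last a histone gene whose copies can share reads. Those most like EZH1 were MICA (0.043), LGALS3 (0.047), POLR2G (0.050), ACP1 (0.055) and PDCD6 (0.055), and those most like CBX6 were ANXA2 (0.045), RPLP2 (0.062), BSG (0.066), RPL18 (0.076) and STING1 (0.081).

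Of 10 other PRC2 subunits, 8 were tested against control (EPOP and EZHIP had too few counts). After 3 days 1 was higher and 2 lower, and after 6 days again 1 higher and 2 lower, beside 8.85% higher and 13.2% lower of all genes at 3 days and 13.3% and 17.2% at 6 days. In MetaICM none was higher and 1 lower, beside 7.41% and 8.99%. Counts this small are given as a description of these lists. PHF19, which recruits PRC2 to chromatin, fell with EZH2, from 32.4 and 28.8 CPM in control to 8.42 and 7.56 CPM after 3 days and 9.35 and 7.92 CPM after 6 days, with 25.7 and 31.8 CPM in MetaICM. Its log2FC was -1.94 after 3 days and -1.83 after 6 days (edgeR Benjamini-Hochberg adjusted p = 4.29e-06 and 9.36e-06). PHF1, a relative of PHF19, rose by 0.80 and 0.85 (edgeR Benjamini-Hochberg adjusted p = 0.0109 and 0.00465). Its control libraries lay apart, at 37.0 and 22.95 CPM. PHF1 exons are annotated on 2 sequences of the build, and the effect on its counts was not tested. The histone-binding subunit RBBP4 fell by 0.61 on the log2 scale after 6 days (edgeR Benjamini-Hochberg adjusted p = 0.00234), with 27.1% of its exon bases shared with SYNC on the other strand, while RBBP7 read -0.45 and was not called. JARID2, an accessory subunit, was lower after 3 days (-0.63) and in MetaICM (-0.73).

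Of 18 other PRC1 subunits examined, 1 was higher and 5 lower after 3 days, none higher and 7 lower after 6 days, and none higher and 2 lower in MetaICM. The shares of all genes were 8.85% higher and 13.2% lower at 3 days, 13.3% and 17.2% at 6 days, and 7.41% and 8.99% in MetaICM. The polyhomeotic gene PHC1 fell by 1.503 on the log2 scale after 6 days, with 20.5% of its exon bases shared with M6PR. BCOR, SCMH1 and PCGF6 read -1.15, -1.14 and -1.10. The ubiquitin ligases differed, with RING1 higher after 3 days (0.76) but not called after 6 days (0.52), and RNF2 not called (-0.03 and 0.06). RING1 exons are annotated on 6 sequences of the build, and the effect on its counts was not tested.

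**Figure D5:**
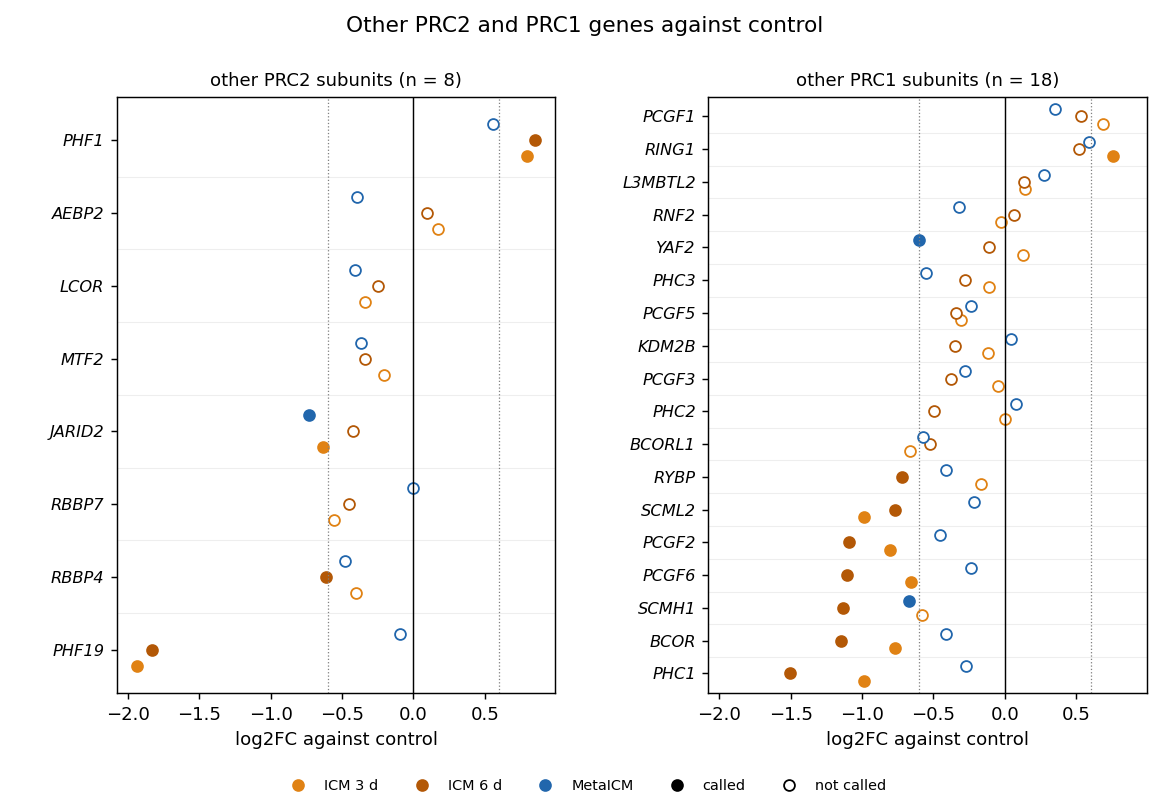
log2FC against control of the other PRC2 and PRC1 subunits tested, ordered by the 6-day value, for ICM 3 days, ICM 6 days and MetaICM, with filled points for called genes and dotted lines at 0.6 and -0.6. PHF19 (-1.94 and -1.83) lies farthest left among PRC2 subunits and PHC1 (-1.503 after 6 days) among PRC1 subunits.

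Genes of opposing enzymes and of other silencing systems were counted in 3 further lists. Over all genes, 17.2% were lower and 13.3% higher after 6 days, and 8.99% lower and 7.41% higher in MetaICM. Of 6 deubiquitinase and H3K27 demethylase genes, none was higher, and ASXL3 and the demethylase KDM6B were lower both after 6 days (-1.25 and -1.11) and in MetaICM (-1.06 and -0.91). Of 3 HP1 genes, the chromobox proteins of heterochromatin, CBX5 (-0.93) and CBX3 (-0.62) were lower after 6 days, CBX5 was also lower in MetaICM (-0.65) and CBX1 was not called. Of 6 H3K9 methyltransferase genes, SUV39H1 (-1.48), EHMT1 (-0.72) and SUV39H2 (-0.66) were lower after 6 days and none was called in MetaICM against control. After 3 days ASXL3, CBX5, SUV39H1 and SUV39H2 were lower and no gene of the 3 lists was higher. The shares of all genes were then 13.2% lower and 8.85% higher. The lists hold 3 to 6 genes, and nothing is read as particular to them.

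At the INK4 locus, CDKN2B, which encodes p15, rose by a log2FC of 0.79 after 3 days and 0.61 after 6 days (edgeR Benjamini-Hochberg adjusted p = 0.00516 and 0.0141). The 6-day value lay just over the size cutoff. In MetaICM CDKN2B read 15.2 and 13.8 CPM, beside 20.5 and 14.9 CPM in control, and was not called against control. It was called lower in MetaICM than in ICM for 3 days (-1.09) and for 6 days (-0.91). CDKN2A, which encodes p16 and ARF, read 3.93 and 2.57 CPM in control, 4.05 and 2.77 CPM after 3 days, 4.57 and 3.51 CPM after 6 days, and 4.90 and 5.69 CPM in MetaICM, where both libraries lay above all others. It was not called against control in any condition, with a log2FC of 0.68 in MetaICM (edgeR Benjamini-Hochberg adjusted p = 0.0688), and was called higher in MetaICM than in ICM for 3 days (0.62, edgeR Benjamini-Hochberg adjusted p = 0.0411). The antisense RNA CDKN2B-AS1 was lower in all 3 treated conditions (-1.03, -1.09 and -1.25). Counting ignored strand, and CDKN2B-AS1 and CDKN2A share exon bases.

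Proliferation genes moved with EZH2. Of 20, 19 were lower and none higher at each ICM time point, 4 were lower in MetaICM, and 19 were higher in MetaICM than in ICM for 6 days, beside 13.2%, 17.2%, 8.99% and 15.7% of all genes in the same comparisons and directions. Their summed level was 2648 to 2689 CPM in control, 346 to 358 CPM after 3 days, 298 to 307 CPM after 6 days and 1685 to 1722 CPM in MetaICM. MKI67, the Ki-67 gene, read -5.53 after 6 days, E2F2 -4.62, BUB1 -4.47 and TOP2A -4.17. E2F1 read -1.82 and -2.01 under ICM and 0.55 in MetaICM. The part of this shift in the EZH2 and CBX2 results was not tested.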

How the data were processed

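Per the labels and file headers, the authors aligned paired-end reads to GRCh37 (hg19) with STAR (version 2.6.0c) and deposited, for each library, whole-number counts of read pairs per RefSeq gene from featureCounts (version 1.6.3), over exons, without regard to strand, with both ends mapped and pairs on several genes left out. The counts are not normalized. The authors' own nascent RNA values used intronic counts, which were not analysed here. On every autosome and on X and Y, the last exon base lies inside the GRCh37 chromosome. Some genes, such as RING1, also have exons on other sequences, which were not checked.

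Each pair of conditions (4 libraries) was fitted with edgeR (version 4.0.16, R 4.3.3), with TMM factors, filterByExpr at a count minimum of 10, the quasi-likelihood test and Benjamini-Hochberg adjustment over all genes. Standard errors are the absolute log2FC divided by the square root of F. Mean levels used TMM over all 8 libraries, and likeness used a prior count of 2. The fit was tested on simulated data with 200 changed genes. For ICM 6 days against control, 98% of those with an absolute log2 fold of 2 and 73% of those with 1 were recovered among 15894 genes, with 3 false calls. Replicates correlated with r of 0.9838 to 0.9931 in log2 CPM, lowest in control, and no libraries were duplicates.

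The members and lists were chosen with earlier results of these data known. All 9 members are named. From each list the text gives counts, and names up to 4 genes called in ICM 6 days against control by size, with RBBP4, RBBP7, RNF2, RING1, CDKN2A, CDKN2B, E2F1 and MKI67 always named. JARID2 and the marker genes KRT18, KRT19, TEK, VWF, CD68, CDH5 and SFTPC were named after their values were seen. Some results of the lists, the CBX shares and the likeness search are not reported here. Alternatives were DESeq2 (version 1.42.0), its size factors, upper-quartile factors, library totals, at least 10 counts in every library, all genes with a count, all 8 libraries in 1 fit, an adjusted p under 0.01, a replicate block and each library left out in turn, where a lone library was assumed to vary like the other condition. Promoter windows came from RefSeq and no coordinates were moved between builds. Figures were drawn with Python 3.11.15 and matplotlib 3.10.9.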

Additional observations from a re-analysis of the deposited data

Results flagged for a closer look

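MetaICM and ICM for 6 days differed in a direct test for 3 of the 9 genes, beside 15.7% higher and 12% lower of all genes in that comparison, so the count is no result about this set. EZH2 was higher in MetaICM by a log2FC of 2.17, CBX2 by 2.10 and CBX6 by 0.60, each higher in both MetaICM libraries than in both ICM 6-day libraries. The CBX6 value lies on the size cutoff. The labels do not explain the MetaICM treatment and give no time for it, so treatment and time cannot be told apart here.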

How the results depend on the processing

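EZH2 and CBX2 kept their direction and their calls under ICM and in MetaICM against ICM in every alternative run, and CBX7 kept its 6-day call in all of them. EZH2 stayed between -2.29 and -2.21 after 3 days and between -2.52 and -2.47 after 6 days, and with each library left out in turn between -2.68 and -2.25 over both. Scaling to library totals gave 2 members higher after 6 days in place of 1, with EZH1 joining CBX7. With each library left out in turn, the number of members called ran from 0 to 1 higher after 3 days (CBX8 without control replicate 1), from 0 to 1 lower between 6 and 3 days (CBX8 without ICM 3-day replicate 2), from 0 to 2 higher in MetaICM against control (CBX8 and CBX6 without control replicate 1) and from 0 to 1 lower there (CBX2 without control replicate 2), and the cause was not tested. Members with small differences changed sign. The log2FC of EED, ICM 6 days against ICM 3 days, was -0.0032 with library totals, and that of CBX8, MetaICM against ICM 3 days, was -0.00145 with DESeq2, -0.011 with its size factors, -0.018 with upper-quartile factors and -0.052 with library totals. With a library left out the log2FC ran as follows, EED (ICM 3 days against control) from -0.030 to 0.11, BMI1 (ICM 3 days against control) from -0.76 to 0.13, CBX8 (ICM 6 days against control) from -0.10 to 0.53, CBX6 (ICM 6 days against control) from -0.24 to 0.031, EED (ICM 6 days against control) from -0.011 to 0.15, EZH1 (ICM 6 days against ICM 3 days) from -0.029 to 0.14, CBX6 (ICM 6 days against ICM 3 days) from -0.044 to 0.13, EED (ICM 6 days against ICM 3 days) from -0.031 to 0.085, EED (MetaICM against control) from -0.11 to 0.028, BMI1 (MetaICM against control) from -0.17 to 0.53, EZH1 (MetaICM against ICM 3 days) from -0.14 to 0.013, CBX8 (MetaICM against ICM 3 days) from -0.22 to 0.31, CBX7 (MetaICM against ICM 3 days) from -0.076 to 0.035, BMI1 (MetaICM against ICM 6 days) from -0.57 to 0.13. Replicate numbers are not said to pair libraries. The correlation of same-numbered deviations ran from -0.11 to 0.17, and a fit with the replicate block left the members called unchanged, with 2 lower after 6 days and 3 higher in MetaICM against ICM for 6 days. Depth limits BMI1 and CBX2, the members with the fewest counts.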
